A study of Homo sapiens with 12 samples.

Results

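Expression of the immunoproteasome and of the subunits it replaces was followed through 10 human genes, PSMB5, PSMB6, PSMB7, PSMB8, PSMB9, PSMB10, PSME1, PSME2, PSME3 and PSME4, out of 58395 genes in the count table. The genes were chosen by name and function, with earlier results of these data known. Of the 10 genes, 9 had enough reads to be tested, and PSMB8 did not. RNA was sequenced from 3 leukemia cell lines, with 4 libraries per line. The edit-3 line (K/VP.5/edit-3) is a single clone of K/VP.5 in which Cas9 protein, a guide RNA and a repair oligonucleotide changed the splice site between exon 19 and intron 19 of TOP2A, the topoisomerase II alpha gene, to aid its recognition. K/VP.5 was derived from K562 as a clonal subline with resistance to etoposide, a topoisomerase II poison. K562, the parental line, is an established BCR-ABL chronic myeloid leukemia line with erythroid features. The labels state that the lines were grown in serum-containing medium with 0.5 µM etoposide every other week, in a sentence that does not separate K562 from the resistant lines. Since edit-3 is 1 clone, the edit and other differences of that clone cannot be told apart, and reads counted per gene do not show whether intron 19 was removed.

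The proteasome degrades ubiquitin-tagged proteins in a barrel-shaped core, the 20S particle, whose catalytic beta subunits face the inner chamber. In the constitutive core the catalytic subunits are PSMB5, with chymotrypsin-like activity, PSMB6, with caspase-like activity, and PSMB7, with trypsin-like activity. Interferon gamma and other inflammatory signals induce PSMB8 (LMP7), PSMB9 (LMP2) and PSMB10 (MECL-1), which take the places of PSMB5, PSMB6 and PSMB7 in newly made cores and shift the peptides cut toward those that fit MHC class I molecules. PSME1 and PSME2 form the ring-shaped activator PA28, which caps the core without need for ubiquitin and is also interferon-inducible. PSME3 forms a related nuclear activator, and PSME4 encodes PA200, a large nuclear activator linked in mouse to the degradation of acetylated histones. Cells of blood origin often carry both kinds of core.

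Library totals ran from 25.3 M to 37.1 M reads (median 29.6 M). The unit of level is CPM, read counts scaled to a common library size with TMM factors. All 10 erythroid and K562 markers had reads in each line, and their summed level was 2500 to 3860 CPM in edit-3, 2400 to 3170 CPM in K/VP.5 and 2830 to 4370 CPM in K562. Edit-3 replicate 1 and K562 replicate 4 lay at the ends of the main axis of spread within lines, which held 39.8% of that spread. Separate cultures are not stated for the libraries of a line, so p-values may rest on technical spread alone. In bulk RNA, fewer cells that express a gene and less RNA per cell cannot be told apart.

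PSMB9, PSME1 and PSME2 rose and PSMB6 and PSME4 fell in edit-3 versus K/VP.5, while PSMB5, PSMB7, PSMB10 and PSME3 did not pass the test. Passing means an adjusted p under 0.05 in edgeR's quasi-likelihood test, with Benjamini-Hochberg adjustment over all genes. Of all 18286 genes tested in this comparison, 23.6% passed, 12.9% higher and 10.6% lower. In K/VP.5 versus K562, PSME4 rose, PSMB10, PSME1 and PSME2 fell, and the 5 other tested members did not pass, against 36.6% of all genes passing, 18.3% higher and 18.3% lower. In edit-3 versus K562, PSMB9 and PSME4 rose, PSMB6 fell and 6 did not pass, against 39.2% of all genes passing, 20.6% higher and 18.6% lower. The medians of the 9 tested members were 0.06, -0.01 and -0.03 on the log2 scale in these comparisons, and those of all tested genes were 0.00405, 0.00259 and 0.0045. The share of members that passed was above the background in the comparison of edit-3 with K/VP.5, near it in K/VP.5 versus K562 and near it in edit-3 versus K562. With 9 genes, 1 call more or less moves such a share widely. Each line enters a pair of the 3 comparisons, so the comparisons share libraries and are not independent.

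**Figure D1:**
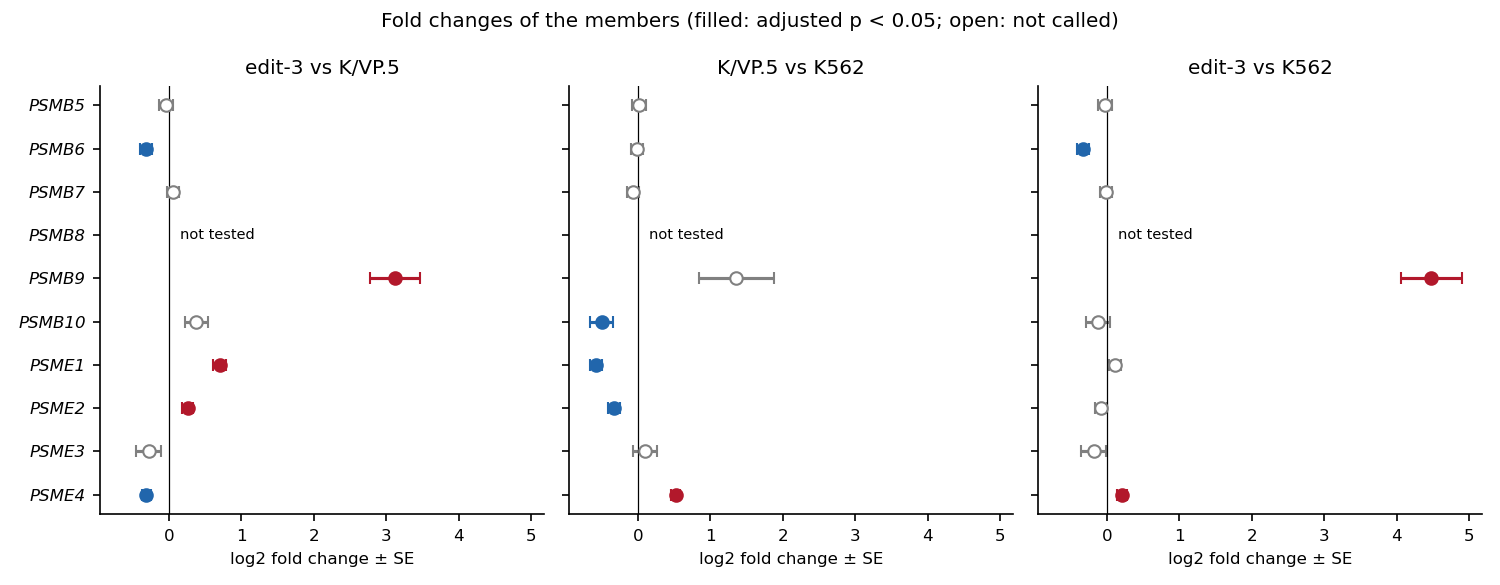
Log2 fold changes of the members with their standard error in the 3 comparisons, filled where the adjusted p was under 0.05, with 4 libraries per line. PSMB9 stands farthest from 0, at 3.12 in edit-3 versus K/VP.5 and 4.48 in edit-3 versus K562, and the other tested members lie between -0.58 and 0.70.

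The promoters of the interferon-inducible members were examined, because PSME1 and PSME2 moved in the same direction in each comparison they passed and PSMB9 moved far more than PSMB10. RefSeq (GRCh38.p14) gave 10 windows for 8 of the members, each from 250 bases before to 50 bases after an annotated start, and none for PSMB6 and PSMB7. The interferon response core GAAANNGAA, searched on both strands, was found in 4 of the 10 windows, 1 each of PSMB8, PSMB10, PSME1 and PSME2, and in 8.11% of 35116 windows genome-wide. The interferon gamma activated site TTCNNNGAA, found in 7.66% of all windows, was present in the same PSMB8 window, in 1 window of PSMB5, where it occurred at -158 and -15, and in the PSME3 window. No match of either motif overlapped a match of the other. The windows below are those of the members with an interferon response core, of PSMB9, which holds neither motif, and of TAP1. The PSMB5 and PSME3 windows with a match, and the other windows with neither motif, are not shown. Capitals mark matches of the 2 motifs, and each window is written 5′ to 3′ on the strand of its gene.
PSMB8 (chr6:32843998-32844297, minus strand): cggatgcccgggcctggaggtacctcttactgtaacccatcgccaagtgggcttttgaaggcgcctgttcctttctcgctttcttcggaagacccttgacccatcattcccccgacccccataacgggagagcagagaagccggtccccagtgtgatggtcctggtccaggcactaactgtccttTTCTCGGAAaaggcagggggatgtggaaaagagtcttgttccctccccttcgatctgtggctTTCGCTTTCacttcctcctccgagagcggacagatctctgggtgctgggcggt
PSMB9 (chr6:32853942-32854241, plus strand): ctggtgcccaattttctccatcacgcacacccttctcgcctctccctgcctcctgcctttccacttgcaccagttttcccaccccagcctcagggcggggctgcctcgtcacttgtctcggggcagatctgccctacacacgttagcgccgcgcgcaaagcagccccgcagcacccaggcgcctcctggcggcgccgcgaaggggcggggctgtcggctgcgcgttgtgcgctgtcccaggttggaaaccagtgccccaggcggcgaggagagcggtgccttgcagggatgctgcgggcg
PSMB10 (chr16:67936801-67937100, minus strand): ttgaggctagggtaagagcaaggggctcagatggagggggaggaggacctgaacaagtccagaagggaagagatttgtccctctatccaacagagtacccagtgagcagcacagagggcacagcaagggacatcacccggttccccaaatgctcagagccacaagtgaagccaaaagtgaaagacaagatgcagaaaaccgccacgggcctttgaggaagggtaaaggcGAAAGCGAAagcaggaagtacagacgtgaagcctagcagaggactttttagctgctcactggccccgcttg
PSME1 (chr14:24135944-24136243, plus strand): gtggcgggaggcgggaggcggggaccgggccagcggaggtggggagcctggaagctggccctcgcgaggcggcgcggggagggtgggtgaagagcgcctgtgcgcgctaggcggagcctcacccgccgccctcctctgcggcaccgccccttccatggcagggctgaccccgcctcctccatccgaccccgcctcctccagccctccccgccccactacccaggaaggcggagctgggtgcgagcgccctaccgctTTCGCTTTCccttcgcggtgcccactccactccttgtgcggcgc
PSME2 (chr14:24146561-24146860, minus strand): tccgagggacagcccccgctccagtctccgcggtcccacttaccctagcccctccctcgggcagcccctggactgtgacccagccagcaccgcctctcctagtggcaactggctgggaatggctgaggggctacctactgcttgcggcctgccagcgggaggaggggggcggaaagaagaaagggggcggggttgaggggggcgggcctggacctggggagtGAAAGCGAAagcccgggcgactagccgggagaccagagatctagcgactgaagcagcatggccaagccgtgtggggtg
TAP1 (chr6:32853655-32853954, minus strand): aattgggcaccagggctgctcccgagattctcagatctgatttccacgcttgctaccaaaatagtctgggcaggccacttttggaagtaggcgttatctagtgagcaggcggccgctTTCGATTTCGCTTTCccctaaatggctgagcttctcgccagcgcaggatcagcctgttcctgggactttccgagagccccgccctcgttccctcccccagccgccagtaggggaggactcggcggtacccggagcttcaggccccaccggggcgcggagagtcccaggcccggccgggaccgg

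In all 4 members the interferon response core had the same letters, GAAAGCGAA or its reverse complement TTCGCTTTC, at -3 in PSMB8, -21 in PSMB10, 7 in PSME1 and -28 in PSME2, counted from the RefSeq start. TAP1, which encodes 1 chain of the peptide transporter of class I loading, is added because its start lies 488 bases from that of PSMB9 on the opposite strand. Its window meets the PSMB9 window, with 13 bases in common, and holds a pair of overlapping matches, TTCGATTTC and TTCGCTTTC, 355 and 361 bases upstream of the PSMB9 start and so outside the PSMB9 window. A match of letters is a description and does not show binding.

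Among the constitutive catalytic subunits, only PSMB6 passed the test in any comparison, and it was lower in edit-3. PSMB6 (ENSG00000142507, chromosome 17, 4796144 to 4798503, plus strand) had 83.7, 69.0, 77.6 and 75.1 CPM in edit-3 replicates 1 to 4, 102.5, 99.8, 90.5 and 89.0 CPM in K/VP.5, with 100.5, 91.2, 106.2 and 87.0 CPM in K562. Every edit-3 library lay below every library of the other lines, which overlapped each other. The log2 fold change was -0.32 in edit-3 versus K/VP.5 (SE 0.085, adjusted p = 0.012) and -0.33 in edit-3 versus K562 (SE 0.085, adjusted p = 0.0055). PSMB6 differed by -0.01 in K/VP.5 versus K562 (95% interval -0.18 to 0.15, adjusted p = 0.93).

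PSMB5 and PSMB7 kept overlapping levels in the 3 lines. PSMB5 (ENSG00000100804, chromosome 14, 23016543 to 23035230, minus strand) averaged 175.8 ± 15.9 CPM in edit-3, 180.4 ± 12.2 CPM in K/VP.5 and 179.4 ± 23.2 CPM in K562 (SD, n = 4). Its log2 fold changes lay between -0.04 and 0.01, and the 95% interval in edit-3 versus K/VP.5 was -0.23 to 0.15. PSMB7 (ENSG00000136930, chromosome 9, 124353466 to 124415444, minus strand) averaged 222.2 ± 20.6 CPM in edit-3, 213.4 ± 13.9 CPM in K/VP.5 and 223.6 ± 15.8 CPM in K562, with log2 fold changes between -0.07 and 0.06. The 95% interval for PSMB7 in edit-3 versus K/VP.5 was -0.10 to 0.22, so a change of the size seen for PSMB6 lay outside it.

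PSMB9, the inducible counterpart of PSMB6, was the member with the largest fold change, and it rose in edit-3 against both other lines. PSMB9 (ENSG00000240065, chromosome 6, 32844136 to 32859585, plus strand) had 93, 138, 80 and 58 reads in edit-3 replicates 1 to 4, 10, 9, 8 and 18 reads in K/VP.5, with 7, 1, 5 and 2 reads in K562. These reads correspond to 3.01, 4.61, 2.88 and 1.75 CPM in edit-3, against 0.283, 0.319, 0.291 and 0.480 CPM in K/VP.5, with 0.248, 0.0328, 0.171 and 0.0805 CPM in K562. No line overlapped another, and the lowest edit-3 library stood well above the highest K/VP.5 library, although the level remained low beside that of PSMB6 in every line. The level in edit-3 was 8.70-fold that in K/VP.5 (log2 fold change 3.12, SE 0.35, adjusted p = 1.1e-05) and 22.3-fold that in K562 (log2 fold change 4.48, SE 0.42, adjusted p = 6.5e-07). In K/VP.5 versus K562 the log2 fold change was 1.36 (SE 0.52, 95% interval 0.35 to 2.37), which did not pass (adjusted p = 0.052). That value passed without edit-3 replicate 2 or 4 (adjusted p = 0.031 and 0.030), without K562 replicate 1 (log2 fold change 1.83, adjusted p = 0.025), with total counts, with DESeq2 and without a filter. The adjusted p ran from 0.025 to 0.14 over the alternatives that could be fitted. With only these 2 lines PSMB9 had too few reads to be tested, so it entered this comparison through its edit-3 reads.

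Markers of cell types that carry immunoproteasomes moved with the line in part. The summed level of 6 monocyte and dendritic markers was 2.33 to 7.24 CPM in edit-3, 1.71 to 2.52 CPM in K/VP.5 and 1.66 to 3.94 CPM in K562, with none at 0. In edit-3 versus K/VP.5, 3 of the 4 tested rose, ITGAX, LYZ and FCGR3A, and CSF1R did not pass. Those that rose were low, at 2.07, 0.982 and 0.727 CPM in edit-3, and their libraries overlapped between these lines. CD14 and CD68 had too few reads to test. CD14 was lower in edit-3 (0.113 CPM) than in K/VP.5 (0.459 CPM), and CD68 was alike (0.049 and 0.047 CPM). The summed level of 7 lymphoid markers was 21.8 to 53.4 CPM in edit-3, 10.9 to 19.2 CPM in K/VP.5 and 40.2 to 82.1 CPM in K562, and 1 of the 2 tested rose in edit-3 versus K/VP.5. MS4A1 was at 0 in every line and CD8A at 0 in edit-3 and K562. The 6 epithelial and fibroblast markers summed to 2820 to 4790 CPM in edit-3, 954 to 1470 CPM in K/VP.5 and 573 to 1320 CPM in K562. Of these 6, 2 rose, 2 fell and 2 did not pass in edit-3 versus K/VP.5, so the sum follows its most abundant genes. COL1A2, a collagen chain, averaged 2491 CPM in edit-3, against 229.5 CPM in K/VP.5, while CDH1, the epithelial cadherin, averaged 0.216 CPM in edit-3, against 2.452 CPM in K/VP.5, and fell (log2 fold change -3.50, adjusted p = 5.2e-05), as did COL1A1 (-1.32, adjusted p = 0.0028). The part of these 3 marker lists in the PSMB9 result was not tested.

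PSMB8, the inducible counterpart of PSMB5, was at the limit of detection. PSMB8 (ENSG00000204264, chromosome 6, 32840717 to 32844703, minus strand) had 0, 0, 1 and 2 reads in edit-3 replicates 1 to 4, and 0 reads in every K/VP.5 and K562 library. The 3 reads of edit-3 gave a mean of 0.0241 CPM (95% Poisson interval 0.00508 to 0.072). The same interval for 0 reads over 4 libraries ends at 0.0287 CPM in K/VP.5 and 0.0327 CPM in K562. A limit of 3 counts, set on another basis, is 0.0233 CPM in K/VP.5 and 0.0266 CPM in K562. These intervals and limits cover counting error only, and a difference between the lines was not detectable at this depth. The gene shares 618 of its 2997 exon bases with its neighbours PSMB8-AS1 and PSMB9. PSMB8-AS1 had 4 reads in edit-3, 0 in K/VP.5 and 1 in K562.

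PSMB10, the inducible counterpart of PSMB7, was lower in K/VP.5 than in K562 by a small margin. PSMB10 (ENSG00000205220, chromosome 16, 67934502 to 67937087, minus strand) had 2.23, 2.97, 2.596 and 2.68 CPM in edit-3, against 2.38, 2.09, 1.89 and 1.68 CPM in K/VP.5, with 2.65, 2.79, 2.595 and 3.38 CPM in K562, from 52 to 89 reads per library. All K/VP.5 libraries lay below all K562 libraries, and edit-3 overlapped both. In K/VP.5 versus K562 the log2 fold change was -0.50 (SE 0.16, adjusted p = 0.023). This call ended without K/VP.5 replicate 3 or 4, without K562 replicate 4, without a filter and without edit-3 replicate 1 and K562 replicate 4 together, over an adjusted p range of 0.017 to 0.080. The value was 0.38 in edit-3 versus K/VP.5 (95% interval 0.07 to 0.70, adjusted p = 0.10), and in edit-3 versus K562 it was -0.12 (95% interval -0.43 to 0.19, adjusted p = 0.59). PSMB10 shares 644 of its 1853 exon bases with AC040162.1, a protein-coding model on the same strand. AC040162.1 stood at 2.83 CPM in edit-3, 3.59 CPM in K/VP.5 and 3.97 CPM in K562, an order that differs from that of PSMB10, and the sources used here do not say how reads shared between them were counted.

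**Figure D2:**
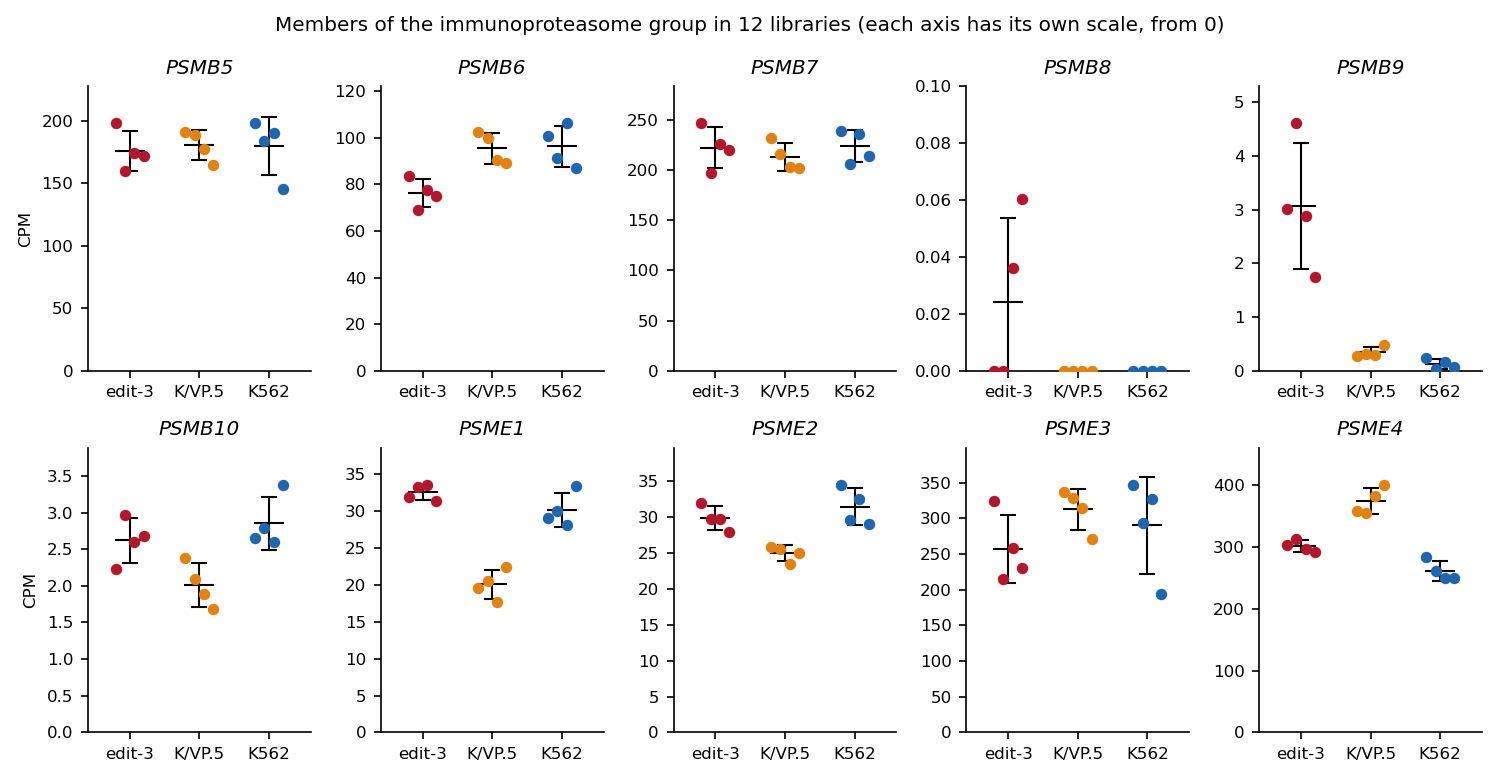
Level of each member in CPM in every library, with the mean and SD of 4 libraries per line and a separate scale from 0 in each panel. PSMB9 stands at 1.75 to 4.61 CPM in edit-3, with every K/VP.5 and K562 library under 0.5 CPM, while PSMB5 and PSMB7 overlap in the 3 lines.

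Reads of each inducible subunit were set against reads of the subunit it replaces in the same library, a ratio that does not depend on library scaling and is not corrected for length. For each 1000 reads of PSMB6 there were 40.8 ± 18.4 reads of PSMB9 in edit-3, 3.64 ± 1.18 in K/VP.5 and 1.34 ± 0.906 in K562 (SD, n = 4). The mean log2 ratio of PSMB9 to PSMB6 was 3.43 higher in edit-3 than in K/VP.5, 1.72 higher in K/VP.5 than in K562 and 5.15 higher in edit-3 than in K562. Edit-3 libraries ran from -5.42 to -3.90, K/VP.5 from -8.50 to -7.54 and K562 from -11.4 to -8.66, so the lines did not overlap. K/VP.5 and K562 came close, and the K562 value of -11.4 rests on 1 read of PSMB9 in replicate 2. With 1 library left out, the difference of 1.72 ran from 1.19 to 2.12. PSMB6 had more reads than PSMB9 in every library. The ratio of PSMB10 to PSMB7 changed far less, with 12 ± 2.49 reads of PSMB10 for each 1000 of PSMB7 in edit-3, 9.39 ± 0.833 in K/VP.5 and 12.9 ± 2.28 in K562. PSMB8 had 0.14 reads for each 1000 of PSMB5 over the edit-3 libraries, and a count of 0 allows up to 0.13 in K/VP.5 and 0.147 in K562.

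**Figure D3:**
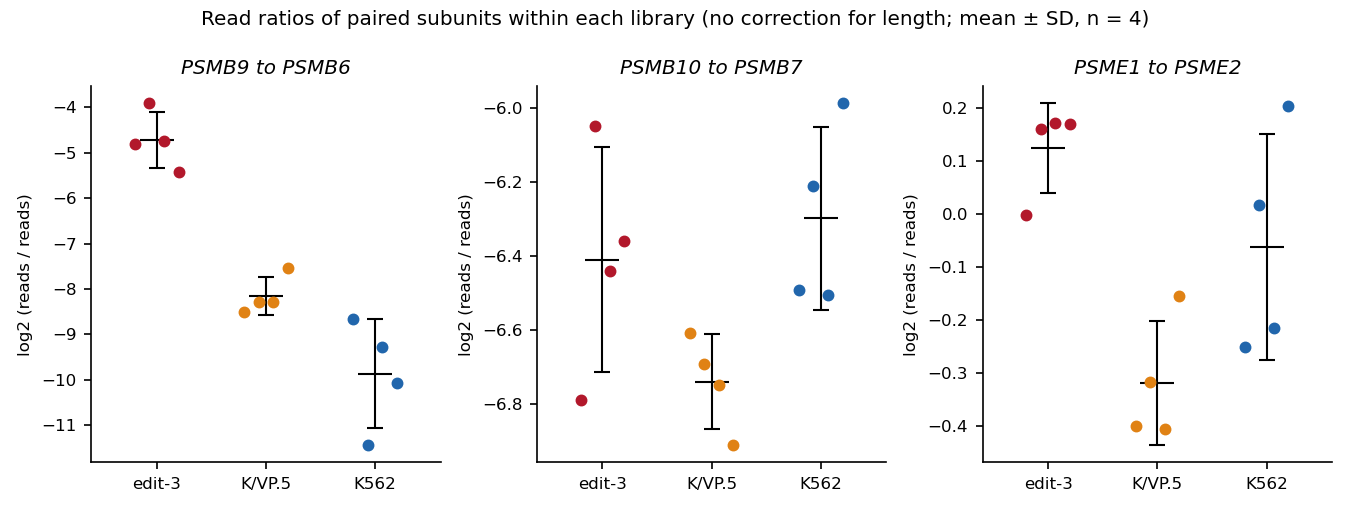
Log2 ratio of reads within each library for PSMB9 to PSMB6, PSMB10 to PSMB7 and PSME1 to PSME2, with the mean and SD of 4 libraries per line and a separate axis for each pair. For PSMB9 to PSMB6 the 3 lines do not overlap, with means of -4.72 in edit-3, -8.15 in K/VP.5 and -9.87 in K562. The lowest K/VP.5 library (-8.50) lies close to the highest K562 library (-8.66).

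Per kilobase of annotated exon, the members fell in the same order in every line. PSMB7 was highest at 124 ± 11.5 CPM per kb in edit-3, 119 ± 7.79 in K/VP.5 and 125 ± 8.85 in K562. PSMB5, PSMB6, PSME3, PSME4, PSME1, PSME2, PSMB10, PSMB9 and PSMB8 followed. PSMB6 and PSME3 overlapped between libraries in each line, PSMB7 and PSMB5 overlapped in edit-3 only, and PSMB10 and PSMB9 overlapped in edit-3 only. In edit-3, PSMB10 stood at 1.41 ± 0.165 and PSMB9 at 0.996 ± 0.383 CPM per kb. In K/VP.5 they stood at 1.08 ± 0.161 and 0.112 ± 0.030 CPM per kb, and in K562 at 1.54 ± 0.194 and 0.0432 ± 0.0311 CPM per kb. The 3 inducible catalytic subunits were thus the lowest members in each line, below both PA28 subunits. The length used is the union of all annotated exons, which overstates the length of a gene with rarely used exons.

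The neighbours of PSMB9 on 6p21.32 were examined, since PSMB8, PSMB9 and the transporter genes TAP1 and TAP2 lie together in the class II region. TAP1 had 16.2 to 21.6 CPM in edit-3, 2.24 to 2.80 CPM in K/VP.5 and 0.885 to 1.91 CPM in K562. As for PSMB9, the lines did not overlap. TAP1 rose in edit-3 versus K/VP.5 (log2 fold change 2.91, SE 0.18, adjusted p = 1.8e-08), in K/VP.5 versus K562 (0.81, SE 0.19, adjusted p = 0.0034) and in edit-3 versus K562 (3.71, SE 0.19, adjusted p = 8.4e-10). TAP2, the partner chain of the transporter, stood at 29.3 ± 3.18 CPM in edit-3, 14.5 ± 1.46 CPM in K/VP.5 and 19.9 ± 3.68 CPM in K562. Its log2 fold change was 1.02 in edit-3 versus K/VP.5, -0.46 in K/VP.5 versus K562 and 0.56 in edit-3 versus K562 (adjusted p = 4.3e-05, 0.013 and 0.0029). Of 10 listed neighbours, TAP1 and TAP2 included, 4 had too few reads to test (HLA-DRA, HLA-DOB, HLA-DMB and HLA-DOA), all class II genes. HLA-DMA, RXRB and RING1 passed in none of the 3 comparisons, and BRD2 passed in K/VP.5 versus K562 (0.28, adjusted p = 0.015).

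**Figure D4:**
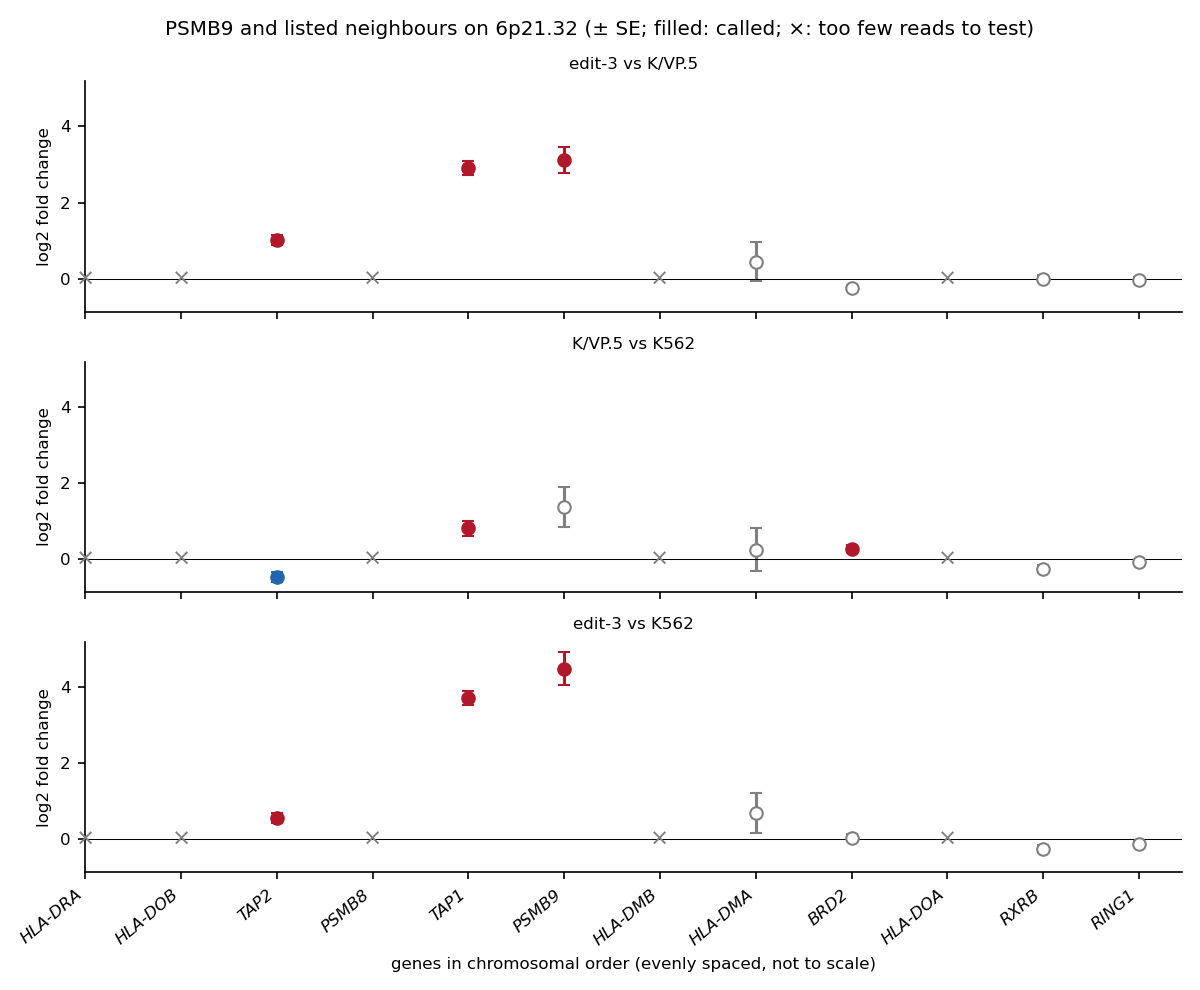
Log2 fold change ± SE of PSMB9, PSMB8 and 10 listed neighbours on 6p21.32 in chromosomal order, not to scale, in the 3 comparisons, with crosses for genes with too few reads. In edit-3 versus K/VP.5 PSMB9 (3.12), TAP1 (2.91) and TAP2 (1.02) are filled, and the 4 other tested genes lie between -0.23 and 0.45.

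Genes whose pattern was most like that of PSMB9 or PSMB10 were found among 11391 protein-coding genes, by the root mean square difference of centred log2 CPM over the 12 libraries. The log2 CPM used a prior count of 2, which shrinks differences of genes with few reads, such as PSMB9 with 15 reads over the K562 libraries. Whether the order of the nearest genes depends on this setting was not tested. The likeness is a description, and says nothing of shared control. TAP1 was nearest to PSMB9 at 0.455, followed by KIF1A (0.537), NOTCH2 (0.548), EPB41L3 (0.553) and KANK1 (0.593), none of which lies on chromosome 6. KIF1A, a kinesin of axonal transport, averaged 523 CPM in edit-3, 67.3 CPM in K/VP.5 and 27.8 CPM in K562. PSMB10 was most like DCAF11 (0.129), AP1M1 (0.139), TMEM98 (0.141), LBX2 (0.142) and NABP1 (0.147). DCAF11, a substrate receptor of a ubiquitin ligase and a neighbour of PSME1, averaged 53.6 CPM in edit-3, 47.2 CPM in K/VP.5 and 60.5 CPM in K562. PSMB8 had too few reads for such a comparison.

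Both PA28 genes were lower in K/VP.5 than in K562 and higher in edit-3 than in K/VP.5, with edit-3 and K562 overlapping. PSME1 (ENSG00000092010, chromosome 14, 24136158 to 24138967, plus strand), the alpha chain, had 31.9, 33.2, 33.6 and 31.4 CPM in edit-3, against 19.6, 20.6, 17.7 and 22.5 CPM in K/VP.5, with 29.03, 30.0, 28.1 and 33.5 CPM in K562. Every K/VP.5 library lay below every library of the other lines. The log2 fold change was 0.70 in edit-3 versus K/VP.5 (SE 0.086, adjusted p = 3.1e-05) and -0.58 in K/VP.5 versus K562 (SE 0.086, adjusted p = 7.7e-05). In edit-3 versus K562 it was 0.11 (95% interval -0.06 to 0.28, adjusted p = 0.34).

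PSME2 (ENSG00000100911, chromosome 14, 24143362 to 24147570, minus strand), the beta chain, had 32.0, 29.7, 29.8 and 28.0 CPM in edit-3, against 25.9, 25.6, 23.4 and 25.1 CPM in K/VP.5, with 34.5, 29.7, 32.6 and 29.1 CPM in K562. The K/VP.5 libraries were again the lowest, by a smaller margin than for PSME1. The log2 fold change was -0.33 in K/VP.5 versus K562 (SE 0.079, adjusted p = 0.0039), and in edit-3 versus K562 it was -0.08 (95% interval -0.23 to 0.08, adjusted p = 0.49). PSME2 rose by 0.26 in edit-3 versus K/VP.5 (SE 0.079, adjusted p = 0.029). This call ended in 7 of 12 fits without 1 library, those without edit-3 replicate 1 or 3, any K/VP.5 library or K562 replicate 2 (0.22 to 0.26). It ended too without a filter (adjusted p = 0.14, the highest of a range from 0.014), with the replicate block and only these 2 lines (adjusted p = 0.053), and without edit-3 replicate 1 and K562 replicate 4 together (adjusted p = 0.051). PSME1 had 1090 ± 64.0 reads for each 1000 of PSME2 in edit-3, 803 ± 66.7 in K/VP.5 and 966 ± 144 in K562. Edit-3 and K/VP.5 did not overlap in this ratio, and K562 overlapped both.

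PSME1 and PSME2 lie close together on 14q12, so their neighbours there were read as well. Of 10 listed neighbours 9 were tested, and in K/VP.5 versus K562 2 fell, none rose and 7 did not pass, with a median log2 fold change of -0.28. The neighbours that fell were EMC9 at -0.54 (adjusted p = 0.014) and DCAF11 at -0.36 (adjusted p = 0.0021), a count of 2 that was 1 without K562 replicate 2. EMC9 shares 9 exon bases with PSME1. Of these neighbours, 1 rose and 8 did not pass in edit-3 versus K/VP.5, with a median of 0.13. The gene that rose, PCK2, a mitochondrial enzyme of gluconeogenesis (0.98, adjusted p = 0.045), did so on 94.1 ± 52.7 CPM in edit-3, against 47.6 ± 6.80 CPM in K/VP.5, and the count of 1 was 0 in 11 of the 12 fits without 1 library, 2 without edit-3 replicate 1 and 0 with the replicate block. Of 7 tested neighbours of PSMB10 on 16q22.1, none passed edgeR's test in edit-3 versus K/VP.5 or in K/VP.5 versus K562, where 1 each had an unadjusted p under 0.05 and 0 passed with DESeq2. With the replicate block 1 rose in each of these comparisons, in all 12 libraries and with only the 2 lines compared. Without edit-3 replicate 1 the counts were 2 and 1. In edit-3 versus K562, DPEP2 rose (0.98, adjusted p = 0.018) and NUTF2 fell (-0.33, adjusted p = 0.012), and this count of 2 was 1 without edit-3 replicate 2 or K562 replicate 1.

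PSME4, the PA200 activator, was highest in K/VP.5. PSME4 (ENSG00000068878, chromosome 2, 53864067 to 53970840, minus strand) had 303.0, 313.3, 295.8 and 292.3 CPM in edit-3, against 358.0, 354.6, 382.6 and 400.4 CPM in K/VP.5, with 283.4, 261.0, 248.9 and 250.0 CPM in K562. The lines did not overlap, and edit-3 lay between the other lines. The log2 fold change was -0.31 in edit-3 versus K/VP.5 (SE 0.065, adjusted p = 0.0026) and 0.52 in K/VP.5 versus K562 (SE 0.065, adjusted p = 1.7e-05). The smaller rise of 0.21 in edit-3 versus K562 (SE 0.065, adjusted p = 0.020) ended without K562 replicate 2 or 3, without a filter and with only these 2 lines, over an adjusted p range of 0.0068 to 0.087.

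PSME3, the nuclear PA28 gamma activator, spread more between libraries than the other abundant members. PSME3 (ENSG00000131467, chromosome 17, 42824385 to 42843758, plus strand) had 323.8, 215.6, 258.8 and 229.9 CPM in edit-3, against 336.6, 328.5, 314.3 and 271.0 CPM in K/VP.5, with 347.4, 294.2, 327.3 and 194.2 CPM in K562. The lines overlapped, and the highest edit-3 value came from replicate 1 and the lowest K562 value from replicate 4, the 2 libraries at the ends of the axis of spread. PSME3 had a log2 fold change of -0.28 in edit-3 versus K/VP.5 (SE 0.17, adjusted p = 0.26), and in edit-3 versus K562 it was -0.18 (SE 0.17, adjusted p = 0.44). Without those 2 libraries together, a choice made after seeing the data, the values were -0.41 and -0.45 (adjusted p = 0.0028 and 0.0014). Leaving out K562 replicate 4 alone gave -0.33 in edit-3 versus K562 (adjusted p = 0.043). Over all alternatives the adjusted p ran from 0.0028 to 0.48 in the first comparison and from 0.0014 to 0.75 in the second. With all libraries of edit-3 and K/VP.5 kept, PSME3 also passed in edit-3 versus K/VP.5 with the replicate block and only these 2 lines (-0.31, adjusted p = 0.026).

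The remaining proteasome genes were described from textbook lists. Of 13 other 20S subunits, 11 were tested, and none passed edgeR's test in edit-3 versus K/VP.5 (median log2 fold change 0.01), with 0 at an unadjusted p under 0.05, 0 with DESeq2 and 1 without edit-3 replicate 1. Between K/VP.5 and K562, 3 fell in K/VP.5 and none rose (median -0.15), among them PSMB3, a structural beta subunit, at 110.0 ± 5.48 CPM in K/VP.5 and 169.9 ± 12.9 CPM in K562 (log2 fold change -0.63, adjusted p = 2.4e-05), and the alpha subunit PSMA1 (-0.58, adjusted p = 9.2e-05). This count was 6 with the replicate block and only these 2 lines, and 5 without edit-3 replicate 1 and K562 replicate 4. In edit-3 versus K562 5 fell and none rose (median -0.27), led by PSMB3 (-0.74, adjusted p = 3.9e-06), PSMA1 (-0.57, adjusted p = 9.8e-05) and PSMA6 (-0.46, adjusted p = 0.022). This count was 8 without edit-3 replicate 1, 9 without that library and K562 replicate 4 together, and 2 without K562 replicate 3. PSMA8 and PSMB11, the testis and thymus subunits, had too few reads to test.

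Of 19 subunits of the 19S regulatory particle, which recognises and unfolds ubiquitin-tagged substrates, 2 rose, 1 fell and 16 did not pass in edit-3 versus K/VP.5. PSMD2, a scaffold subunit of the 19S base, stood at 517.4 ± 29.6 CPM in edit-3, 361.5 ± 19.4 CPM in K/VP.5 and 549.8 ± 55.6 CPM in K562. It rose in edit-3 versus K/VP.5 (0.52, adjusted p = 0.00019) and fell in K/VP.5 versus K562 (-0.61, adjusted p = 2.1e-05). PSMC1, an ATPase subunit, rose in edit-3 versus K/VP.5 (0.36, adjusted p = 0.023), and the ubiquitin receptor gene ADRM1 fell (-0.38, adjusted p = 0.048). This count of 3 was 1 without K/VP.5 replicate 2 or 3, and 8 without edit-3 replicate 1 and K562 replicate 4. In K/VP.5 versus K562 1 rose, PSMC2 (0.64, adjusted p = 0.00037), and 4 fell, among them PSMD13 (-0.59, adjusted p = 7e-06), a count of 5 that was 3 without K/VP.5 replicate 4, without K562 replicate 1 or without a filter. For edit-3 versus K562, 2 rose and 3 fell, among them PSMD11 (-0.60, adjusted p = 0.0039) and PSMD13 (-0.66, adjusted p = 2.2e-06).

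Assembly and regulation genes moved in both directions. Of 10 genes, the assembly chaperones and the inhibitor PSMF1, 2 rose and 1 fell in edit-3 versus K/VP.5, 2 rose and 3 fell in K/VP.5 versus K562, and 3 rose and 3 fell in edit-3 versus K562. PSMG4, a chaperone of core assembly, had 54.9 ± 2.31 CPM in edit-3, 41.1 ± 1.09 CPM in K/VP.5 and 65.2 ± 5.28 CPM in K562. POMP, the maturation chaperone of the core, stood at 115.4 ± 8.82 CPM in edit-3, 105.8 ± 4.14 CPM in K/VP.5 and 87.1 ± 3.64 CPM in K562, and rose in K/VP.5 versus K562 (0.28, adjusted p = 0.0049) and in edit-3 versus K562 (0.41, adjusted p = 0.00026). Of 7 genes of the NFE2L1 pathway, which drives transcription of constitutive proteasome genes, none passed edgeR's test in edit-3 versus K/VP.5, where 2 had an unadjusted p under 0.05, 0 passed with DESeq2 and 3 passed with the replicate block in all libraries. The protease gene DDI2, which activates NFE2L1, fell in K/VP.5 versus K562 (-0.51, adjusted p = 0.00057) and in edit-3 versus K562 (-0.70, adjusted p = 3.1e-05). MAFK, also on this list, rose in K/VP.5 versus K562 (1.04, adjusted p = 0.00036) and in edit-3 versus K562 (0.77, adjusted p = 0.0031). In each of these 2 comparisons 1 gene of the list rose and 2 fell. NFE2L1 itself passed in no comparison. In K/VP.5 versus K562 the count of this list was 3, and 5 with the replicate block and only these 2 lines.

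Interferon signalling genes upstream of the inducible subunits showed no common direction in edit-3. Of 16 such genes 14 were tested, and 3 rose, 2 fell and 9 did not pass in edit-3 versus K/VP.5 (median -0.005). IRF2, a repressor and activator at interferon response elements, rose (0.61, adjusted p = 0.0040), as did the kinases JAK1 (0.51, adjusted p = 0.012) and JAK2 (0.44, adjusted p = 0.0021). SOCS1, a feedback inhibitor, and IFNGR1, a chain of the interferon gamma receptor, fell by 0.61 and 0.51 (adjusted p = 0.0038 and 0.00099). IRF1, which activates PSMB9 and TAP1 in interferon-treated cells, stood at 6.80 ± 0.515 CPM in edit-3, 6.01 ± 0.889 CPM in K/VP.5 and 3.76 ± 1.202 CPM in K562. It rose in K/VP.5 versus K562 (0.68, adjusted p = 0.010) and in edit-3 versus K562 (0.86, adjusted p = 0.0020). Its value in edit-3 versus K/VP.5 was 0.18 (adjusted p = 0.54). IRF8 and NLRC5, the class I transactivator, had too few reads to test, with 9 reads of NLRC5 in edit-3, 29 in K/VP.5 and 10 in K562.

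Genes that supply and load peptides on class I molecules had a median log2 fold change of 0.735 in edit-3 versus K/VP.5, where 8 of 12 tested rose, 2 fell and 2 did not pass. TAP1, TAP2, B2M (0.77, adjusted p = 3.1e-05) and the trimming peptidase gene ERAP1 (0.70, adjusted p = 5e-05) were among those that rose, and the chaperone genes CALR (-0.54, adjusted p = 0.00020) and PDIA3 (-0.46, adjusted p = 2.5e-05) fell. In the list 5 rose and 4 fell in K/VP.5 versus K562 (median 0.26), and B2M was among those that fell (-0.40, adjusted p = 0.0036). In edit-3 versus K562 7 rose and none fell (median 0.45). HLA-C had 18.4 ± 2.12 CPM in edit-3, 7.83 ± 0.273 CPM in K/VP.5 and 0.101 ± 0.0962 CPM in K562, while HLA-B had 2.76 ± 0.331 CPM in edit-3, 1.39 ± 0.219 CPM in K/VP.5 and 0.0287 ± 0.0381 CPM in K562. HLA-E followed another order, at 35.9 ± 7.45 CPM in edit-3, 15.7 ± 1.56 CPM in K/VP.5 and 29.8 ± 13.8 CPM in K562. It fell in K/VP.5 versus K562 (-0.92, adjusted p = 0.018) and did not pass in edit-3 versus K562 (0.27, adjusted p = 0.45). Class I heavy chain genes share sequence, so reads can be assigned to the wrong copy and these values are uncertain. CD14, CD68, CSF1R, POMP, NFE2L1, JAK1, JAK2, NLRC5, B2M, ERAP1, CALR, PDIA3, HLA-B and HLA-C were named after their values were seen. PSMB9 rose beside TAP1, TAP2, B2M and ERAP1 in edit-3 versus K/VP.5, while PSMB8 stayed at the limit of detection and PSMB10 did not pass.

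**Figure D5:**
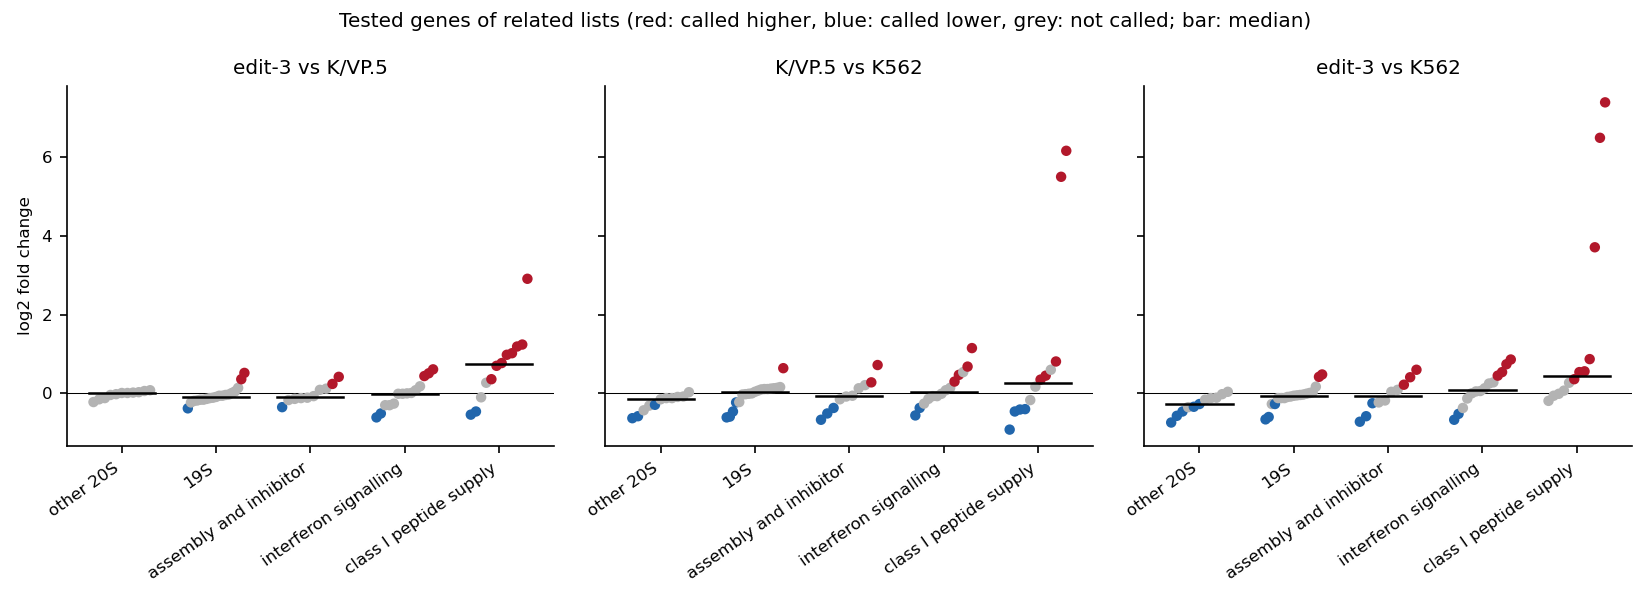
Log2 fold changes of the tested genes of 5 related lists in the 3 comparisons, with a bar at each median. In edit-3 versus K/VP.5 the median of the class I list is 0.735, and those of the other lists lie between -0.09 and 0.01.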

How the data were processed

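RNA of 3 lines, 4 libraries each, was analysed from 1 table of raw read counts per gene that the authors deposited. The deposited counts were made with HISAT2 2.1.0, featureCounts and Subread 1.5.1 on GRCh38, per the submitters' processing notes. Strand setting, annotation release and the handling of reads that overlap several genes or match several places are not given in the sources used. Libraries were assigned to lines by source name, because the description field calls all libraries parental.

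Counts were tested in R 4.3.3 with edgeR 4.0.16 (filterByExpr, TMM, robust quasi-likelihood test, 1 coefficient per line, all 12 libraries, Benjamini-Hochberg over 18286 genes holding 99.89% of reads), after a check on simulated data. SE is the log2 fold change divided by the square root of the F statistic. Coordinates and exon lengths come from GENCODE 29, in which 58275 of 58395 IDs were found. Limits for 0 reads use 3 counts. DESeq2 1.42.0, other filters and scalings, each library left out and replicate blocks were alternatives. Named genes were the members and, from each list, the 3 genes with the largest change among those that passed in each comparison. The members and lists were chosen with earlier results of these data known.

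Deviations of same-numbered K/VP.5 and K562 libraries correlated at 0.314, 0.154, 0.145 and 0.508. Those of edit-3 with the other lines ran from -0.109 to 0.474. No label ties these numbers together, so the main tests used no replicate block. Blocks by replicate number entered only as alternatives. Chi-square per degree of freedom between libraries of a line was 6.68 to 67.4, so none was a copy of another.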

Additional observations from a re-analysis of the deposited data

Results flagged for a closer look

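In edit-3, the log2 ratio of PSME1 to PSME2 reads was -0.001 in replicate 1 and 0.161 to 0.172 in the other 3 libraries, a gap of 0.936 of the whole range, past Dixon's 95% critical value. It was 1 of 37 groups of 4 libraries examined, and chance flags about 1 in 20 such groups. Edit-3 replicate 1 also lay at one end of the main axis of spread within lines. Its part in this value was not tested.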

How the results depend on the processing

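Of 565 alternative values for the 27 fold changes of members, 536 kept their side of the threshold, 19 no longer passed, 10 newly passed and no call changed sign. The calls of PSMB6, PSMB9, PSME1 and PSME4 in edit-3 versus K/VP.5, of PSMB6 and PSMB9 in edit-3 versus K562, and of PSME1, PSME2 and PSME4 in K/VP.5 versus K562 passed under every alternative that could be fitted. PSMB9 in K/VP.5 versus K562 could not be fitted with only those 2 lines, where its reads were too few. Genes passing ran from 3388 to 4926 in edit-3 versus K/VP.5, 5839 to 7221 in K/VP.5 versus K562 and 6478 to 7553 in edit-3 versus K562 with 1 library left out. With the replicate block they numbered 5494, 7681 and 8121 in all 12 libraries, or 4925, 8690 and 6811 with only the 2 lines compared, and the block changed no member call in K/VP.5 versus K562. In edit-3 versus K/VP.5, the block with only those 2 lines let PSME3 pass (-0.31, adjusted p = 0.026) and ended the PSME2 call. Without edit-3 replicate 1 and K562 replicate 4 together, 5838 genes passed in edit-3 versus K/VP.5. Reads limit PSMB8, at 3 reads in all, and PSMB9 in K562, at 15.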
